A study of Homo sapiens with 12 samples.

Results

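Cells made to overexpress CXXC5 were set directly against cells in which CXXC5 had been knocked down. The comparison is the 3 arrays of the overexpression group minus the 3 arrays of the knockdown group, chosen by their titles, so 6 of the 12 arrays of the series stand in it. It was described over 19064 probe sets that carry 1 gene symbol, which represent 11963 genes. All cells were K562, an established human leukaemia cell line with erythroid and megakaryocytic features, called an AML line in the labels. Every culture received Wnt3a protein (100 ng/ml) in medium without serum, and total RNA was taken at 8 h. The overexpression group carried pEGFP-CXXC5, human CXXC5 in the pEGFP-C2 vector, brought in by nucleofection, a transient transfection. The knockdown group carried CXXC5 shRNA in pLKO.1 by stable lentiviral infection; 2 shRNA clones are named, without saying which sample carried which. A further 3 arrays came from cells nucleofected with empty pEGFP-C2 and 3 from cells infected with a scrambled shRNA in pLKO. Delivery therefore changes together with CXXC5 in this comparison, and the part of each cannot be told apart within the 6 arrays.

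CXXC5 belongs to the family of proteins with a CXXC zinc finger, which binds CpG-rich, unmethylated DNA. It is known as an inhibitor of canonical Wnt signalling that binds Dishevelled, the cytoplasmic protein that passes the signal from Frizzled receptors to beta-catenin. The annotation pairs 0 probe sets with CXXC5, so the CXXC5 level is not analysed here and cannot serve as a check of the labels.

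Targets of well-studied transcription factors are among the gene groups described here. The promoters below show the sequence upstream of some genes that stood among the largest differences or in the lists with the most calls. Only genes with a match are shown. Many windows of called genes in the same lists hold none, as the counts after the sequences give. NF-kappaB binds a motif searched here as GGG, any 3 bases and TTCC, the factor ATF4 pairs with C/EBP proteins on TGATGNAA, and the metal-sensing factor MTF1 binds the metal response element TGCNCNC. Both strands were searched over the 250 bases before each RefSeq transcription start (GRCh38.p14), and in the sequences shown 0 matches of these 3 motifs overlapped one another. Each sequence reads 5′ to 3′ on the gene's strand, with motif matches in capitals, on either strand. CXCL10, LTB and CCL20 were higher in overexpression and hold the NF-kappaB letters. AARS1 and ATF3 were lower and hold the ATF4 letters, and MT1X and SLC30A1, also lower, hold the metal response letters. ATF3 has 2 windows in the table, and the one not shown holds 0 matches.
CXCL10 (chr4:76023498-76023747, minus strand): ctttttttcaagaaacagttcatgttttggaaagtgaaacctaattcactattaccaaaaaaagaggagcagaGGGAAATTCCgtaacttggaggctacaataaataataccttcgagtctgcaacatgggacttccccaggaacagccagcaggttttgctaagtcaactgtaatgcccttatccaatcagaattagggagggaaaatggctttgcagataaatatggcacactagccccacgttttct
LTB (chr6:31582426-31582675, minus strand): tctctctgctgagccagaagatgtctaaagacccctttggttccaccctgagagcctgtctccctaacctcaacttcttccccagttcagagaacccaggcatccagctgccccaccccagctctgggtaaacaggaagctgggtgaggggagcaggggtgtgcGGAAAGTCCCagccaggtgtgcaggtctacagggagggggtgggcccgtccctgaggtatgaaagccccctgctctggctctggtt
CCL20 (chr2:227813592-227813841, plus strand): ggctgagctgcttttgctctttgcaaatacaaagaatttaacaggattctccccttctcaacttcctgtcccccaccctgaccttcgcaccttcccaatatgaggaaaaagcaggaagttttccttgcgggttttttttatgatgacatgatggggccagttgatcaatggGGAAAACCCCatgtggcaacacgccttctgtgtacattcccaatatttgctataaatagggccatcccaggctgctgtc
AARS1 (chr16:70289507-70289756, minus strand): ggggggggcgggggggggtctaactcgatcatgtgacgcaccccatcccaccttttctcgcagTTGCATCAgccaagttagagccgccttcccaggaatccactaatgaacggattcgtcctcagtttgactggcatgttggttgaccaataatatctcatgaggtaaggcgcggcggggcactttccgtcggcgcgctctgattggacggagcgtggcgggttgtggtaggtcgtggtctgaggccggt
ATF3 (chr1:212565157-212565406, plus strand): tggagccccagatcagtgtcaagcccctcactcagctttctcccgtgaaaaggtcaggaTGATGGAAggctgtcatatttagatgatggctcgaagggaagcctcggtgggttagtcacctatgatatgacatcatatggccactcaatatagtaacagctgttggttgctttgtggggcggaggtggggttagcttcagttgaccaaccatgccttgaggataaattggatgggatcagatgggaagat
MT1X (chr16:56682220-56682469, plus strand): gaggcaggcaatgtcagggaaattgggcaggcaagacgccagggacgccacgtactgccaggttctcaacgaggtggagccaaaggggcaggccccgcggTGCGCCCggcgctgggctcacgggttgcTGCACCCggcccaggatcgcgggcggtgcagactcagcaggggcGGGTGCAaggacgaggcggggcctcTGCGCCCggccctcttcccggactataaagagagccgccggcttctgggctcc
SLC30A1 (chr1:211579162-211579411, minus strand): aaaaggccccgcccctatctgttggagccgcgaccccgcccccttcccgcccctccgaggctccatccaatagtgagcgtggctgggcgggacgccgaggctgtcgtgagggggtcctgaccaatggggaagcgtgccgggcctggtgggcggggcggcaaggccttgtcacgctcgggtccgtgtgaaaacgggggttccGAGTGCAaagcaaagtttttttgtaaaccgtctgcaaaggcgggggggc
Of 35116 such windows in RefSeq, 5.67% held the NF-kappaB letters, 3.14% the ATF4 letters and 49.1% the metal response letters. Among genes past the threshold described below, 7 of 12 windows of the NF-kappaB list held the NF-kappaB letters (58.3%). These windows belong to 10 genes, and LTB enters with 2 overlapping windows. The ATF4 letters were in 4 of 24 windows of the ATF4 list (16.7%). The metal response letters were in 4 of 5 windows of the metallothionein and zinc transporter list (80%). They were also in 68.8% of windows of the sterol and fatty acid list and 64.3% of the immediate early list. In the ATF4, unfolded protein response and NF-kappaB lists they were in 50%, 45.5% and 41.7%. A match describes letters, not a bound site. The lists were made of known targets, and their uncalled members were not counted. The shares therefore cannot tell whether matches go with the differences between the groups.

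Overexpression and knockdown differed at 2330 of the 19064 probe sets (12.2%, limma, Benjamini-Hochberg adjusted p under 0.05). Of these, 1057 (5.54%) were higher in overexpression and 1273 (6.68%) were lower. Most differences were small: the median size among the called probe sets was 0.38 on the log2 scale, and 40 (0.21%) reached 2-fold, 26 higher (0.136%) and 14 lower (0.0734%). The count of called probe sets was 1230 without overexpression replicate 2, 1316 without knockdown replicate 2, 1376 without knockdown replicate 3 and 1415 without overexpression replicate 3. At the probe set with the highest mean per gene, 666 genes (5.57%) were higher and 909 (7.6%) lower, 13.2% of genes in all, against a median log2 difference of -0.0188 over all genes. All values below are log2 expression values or log2 differences of overexpression minus knockdown at that probe set, unless stated. Counts of rises and falls in the gene lists below compare with these shares of 5.57% higher and 7.6% lower. Counts between the control groups compare with 14.3% of genes higher and 15.1% lower with empty vector.

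Arrays of one group correlated at 0.9967 to 0.9977 (overexpression) and 0.9965 to 0.9981 (knockdown), and arrays across both groups at 0.9929 to 0.9952. The 3′ minus 5′ difference of the GAPDH control probe sets, a measure of RNA and labelling quality, was 0.227 to 0.277 in overexpression, 0.296 to 0.335 in knockdown, 0.257 to 0.309 in the empty vector group, and 0.233, 0.266 and 0.87 in the scrambled shRNA group. The third scrambled shRNA array thus stood apart on this measure, and overexpression lay slightly below knockdown; the part of this in the results was not tested. Without that array, 1260 probe sets were higher and 1543 lower. Genes that mark the K562 lineage had mean levels of 10.07 to 10.15 in overexpression, 10.23 to 10.28 in knockdown, 10.12 to 10.22 in the empty vector group and 10.22 to 10.26 in the scrambled shRNA group. Their median level stood at percentile 85.3 of all genes, against 26.7 for lymphoid, 27.7 for fibroblast and 28.4 for epithelial markers. In bulk RNA, fewer cells of a type and less RNA per cell cannot be told apart.

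The gene with the largest rise was PMCH, which encodes the precursor of melanin-concentrating hormone. PMCH had 7.38, 7.33 and 7.36 in overexpression, 4.99, 4.99 and 5.05 in knockdown, 5.72, 5.65 and 5.6 with empty vector, and 5.04, 5.28 and 5.06 with scrambled shRNA. Overexpression stood above every other array, and the rise over knockdown was 2.35 ± 0.07 (SE, 5.09-fold, adjusted p = 7.01e-09). LY96 encodes MD-2, the partner of the lipopolysaccharide receptor TLR4. LY96 had 7.33, 7.31 and 7.17 in overexpression, 5.51, 5.21 and 5.40 in knockdown, 6.07, 6.12 and 6.03 with empty vector, and 4.5, 4.45 and 5.22 with scrambled shRNA. Its difference was 1.90 ± 0.16 (adjusted p = 5.9e-05), while the empty vector arrays also stood above the scrambled ones by 1.35 (adjusted p = 0.000173).

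**Figure D1:**
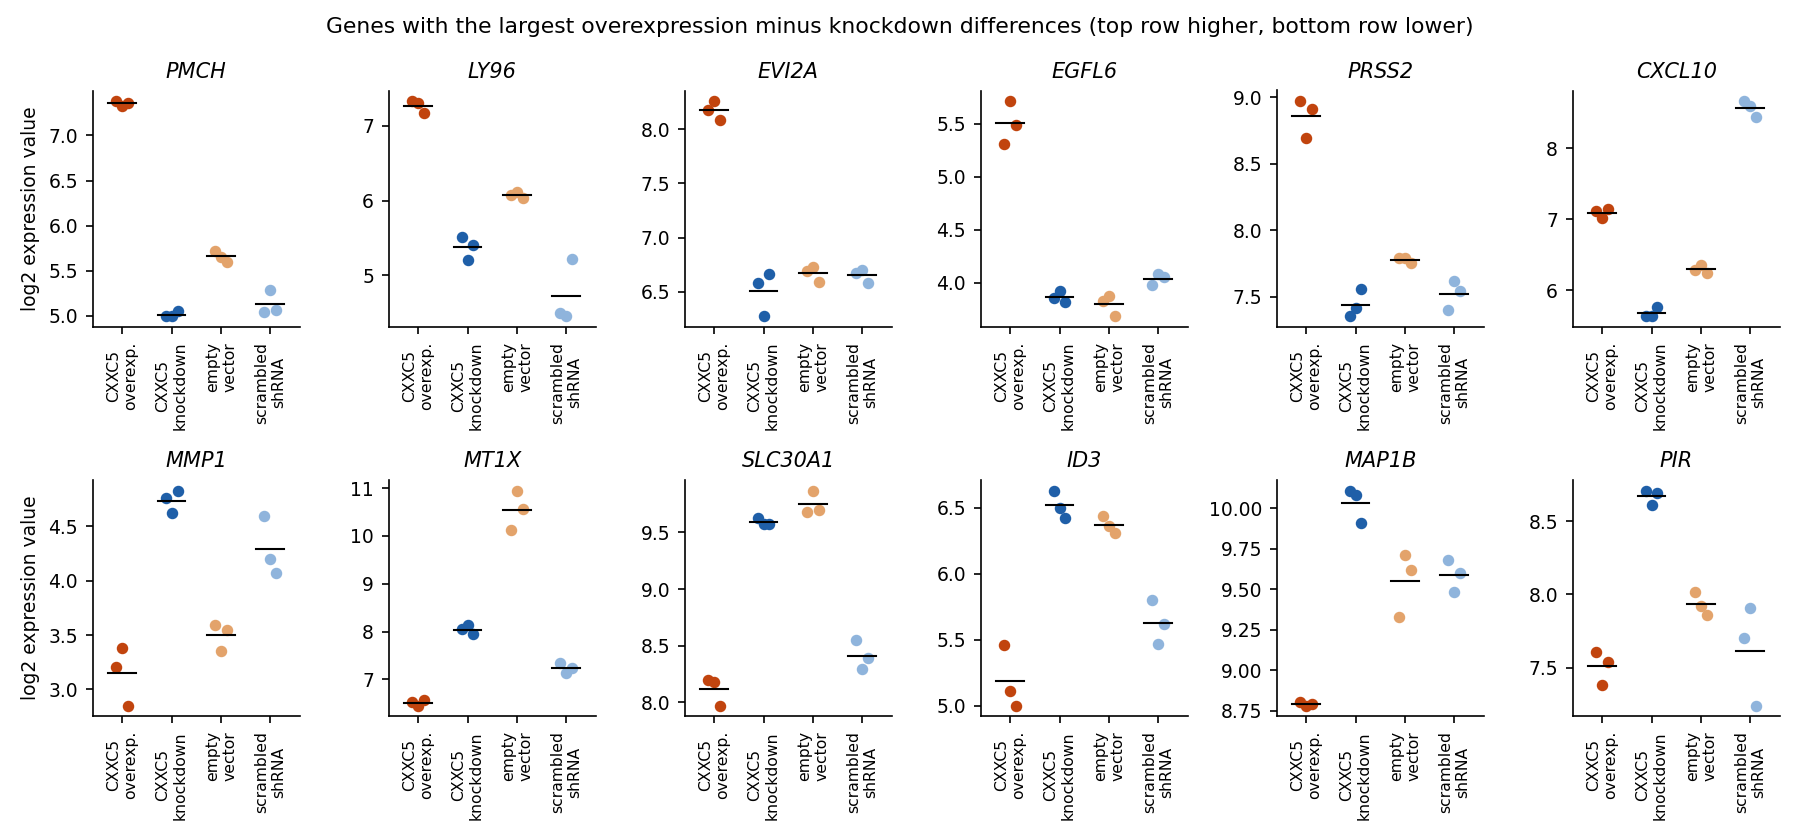
Log2 expression value (vertical axis, a separate scale per gene) in each of the 12 arrays, for the 6 genes with the largest rise (top) and the 6 with the largest fall (bottom) in CXXC5 overexpression minus CXXC5 knockdown. Points are arrays and lines are group means (n = 3 each). PMCH, EVI2A and EGFL6 are high in the overexpression arrays alone, while CXCL10 is highest in the scrambled shRNA arrays and MT1X in the empty vector arrays.

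EVI2A encodes a transmembrane protein whose gene lies within an intron of NF1. EVI2A had 8.18, 8.26 and 8.09 in overexpression, 6.58, 6.27 and 6.66 in knockdown, 6.69, 6.73 and 6.59 with empty vector, and 6.67, 6.70 and 6.58 with scrambled shRNA. Knockdown overlapped both control groups, and only overexpression lay apart, by 1.67 ± 0.09 over knockdown (adjusted p = 2.02e-06). EGFL6, a secreted protein with EGF-like repeats, had 5.31, 5.71 and 5.49 in overexpression, 3.85, 3.92 and 3.82 in knockdown, 3.83, 3.87 and 3.68 with empty vector, and 3.98, 4.08 and 4.05 with scrambled shRNA. Overexpression again stood highest, while knockdown overlapped the empty vector arrays and lay below the scrambled arrays. EGFL6 rose by 1.64 ± 0.09 (adjusted p = 2.02e-06). Its mean level was low, at percentile 12.9 of all genes.

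PRSS2, a trypsinogen, had 8.97, 8.69 and 8.91 in overexpression against 7.35, 7.41 and 7.56 in knockdown, a rise of 1.42 ± 0.09. Its probe set may read related trypsinogen genes. CGA, the common alpha chain of the glycoprotein hormones, had 6.32, 6.13 and 5.79 in overexpression against 4.47, 4.87 and 4.69 in knockdown, a rise of 1.41 ± 0.22 (adjusted p = 0.00249). CALB1, a calcium-buffering protein of neurons and kidney, had 7.62, 7.60 and 7.43 in overexpression against 6.33, 5.98 and 6.17 in knockdown. Neither PRSS2, CGA nor CALB1 overlapped between the groups. For CALB1, however, the 1.39 between overexpression and knockdown was matched by 1.29 between empty vector and scrambled shRNA (adjusted p = 8.33e-05). The difference between those differences was 0.10 ± 0.20 for CALB1 (adjusted p = 0.785). FCGR1BP, annotated as a pseudogene of the Fc-gamma receptor I family, rose by 1.12, and its probe set may read its functional relatives. STK4, the MST1 kinase of the Hippo pathway, also had a difference of 1.12, but with arrays from 6.13 to 6.79 in overexpression and from 4.97 to 5.94 in knockdown. Leaving out any of 6 single arrays, among them 2 each of the overexpression, knockdown and empty vector groups, ended the STK4 call (adjusted p = 0.0392 with all arrays). The other STK4 probe set had a difference of 0.02 (adjusted p = 0.923).

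At the brightest probe set per gene, the largest fall was in MMP1, interstitial collagenase. Its mean level was low, at percentile 9.15 of all genes, and detection calls are not given. MMP1 had 3.21, 3.38 and 2.85 in overexpression, 4.76, 4.62 and 4.83 in knockdown, 3.59, 3.35 and 3.55 with empty vector, and 4.60, 4.20 and 4.07 with scrambled shRNA. It fell by 1.59 ± 0.15 (adjusted p = 0.000104), and the nucleofected groups were the low pair and the lentiviral groups the high pair. MAP1B, a microtubule-binding protein, had 8.80, 8.78 and 8.79 in overexpression, 10.11, 10.08 and 9.91 in knockdown, 9.33, 9.71 and 9.62 with empty vector, and 9.68, 9.48 and 9.60 with scrambled shRNA. Here both control groups overlapped each other and lay between the ends, which differed by -1.24 ± 0.10 (adjusted p = 3.04e-05).
PIR, an iron-binding nuclear protein, had 7.61, 7.38 and 7.54 in overexpression against 8.71, 8.61 and 8.69 in knockdown, with the empty vector arrays at 7.86 to 8.02 and the scrambled arrays at 7.24 to 7.91. Both control groups thus lay nearer to overexpression than to knockdown. ZNF22, a zinc finger protein, had 9.01, 8.77 and 8.79 in overexpression against 9.96, 9.90 and 9.99 in knockdown. Empty vector arrays at 9.78 to 9.93 stood with knockdown for ZNF22, and scrambled arrays at 8.65 to 8.75 stood with overexpression. DYNC1H1, the dynein heavy chain, fell by 0.95 and PRSS23, a serine protease, fell by 0.99, each with the controls between the ends or near overexpression. RASGRP1, an activator of Ras, fell by 0.99, with the empty vector arrays (6.59 to 6.78) near knockdown (6.34 to 6.86) and the scrambled arrays (5.57 to 5.73) near overexpression (5.38 to 5.81). RUFY2 also had a difference of -1.06, but leaving out knockdown replicate 1, knockdown replicate 2 or overexpression replicate 3 ended its call (adjusted p = 0.0192 with all arrays).

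The labels give no untreated cells, so each end was placed beside both control groups. Both control means lay between overexpression and knockdown at 1258 of the 2330 called probe sets (54.0%), against 19.3% of all probe sets; the call rule itself favours this arrangement, because it requires the ends to be far apart. Among called probe sets the empty vector mean stood at a median position of 0.476 on a scale with knockdown at 0 and overexpression at 1, and the scrambled shRNA mean at 0.427. The empty vector and scrambled shRNA groups repeat the contrast of deliveries with no change of CXXC5, in arrays that the comparison does not use. They differed at 5442 probe sets (28.5%), with 2859 higher (15%) and 2583 lower (13.5%) with empty vector, and at 3525 without empty vector replicate 2. Of the 2330 calls, 530 (22.7% of these calls, 9.74% of the control calls) were also called in empty vector minus scrambled shRNA with the same sign. Another 529 (22.7% and 9.72%) had the opposite sign, and 1271 (54.5%) were not called between the controls. Across the 19064 probe sets both differences correlated at r = 0.106 (Spearman rho 0.165); probe sets are not independent replicates.

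**Figure D2:**
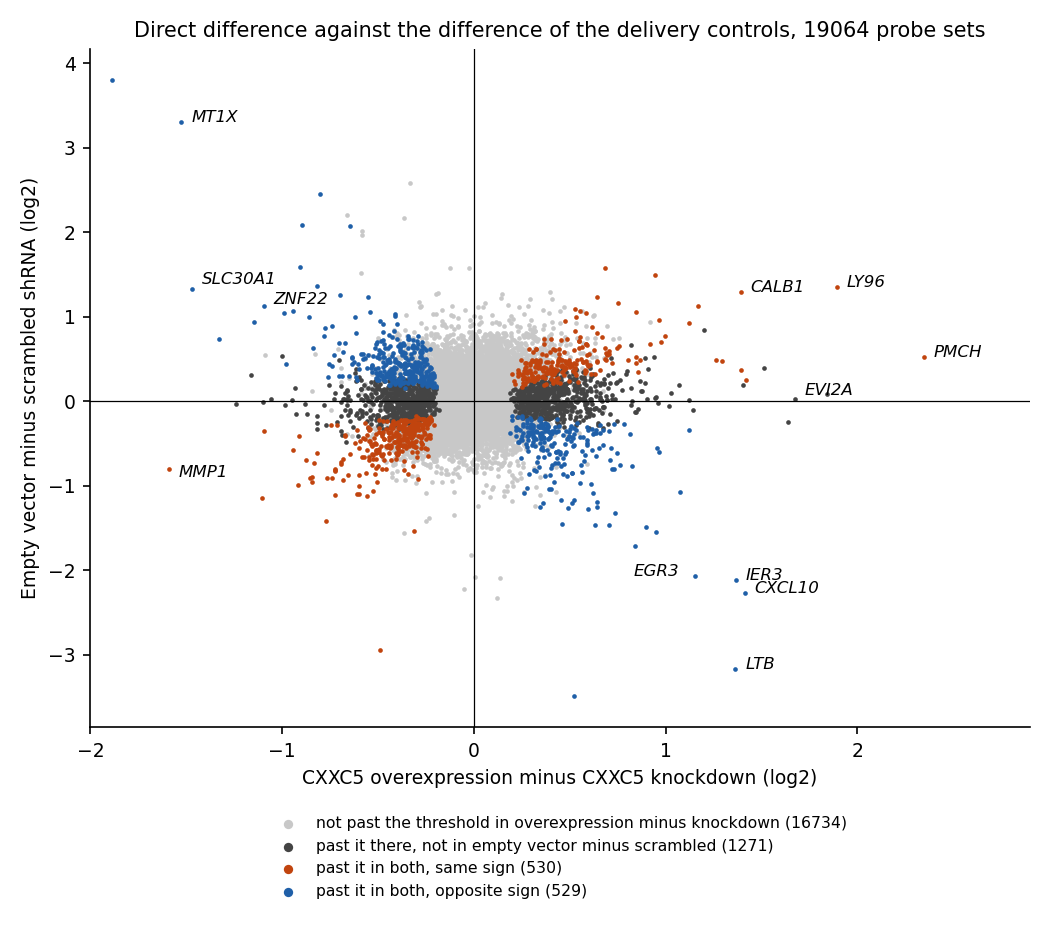
Log2 difference of CXXC5 overexpression minus CXXC5 knockdown (horizontal axis) against that of empty vector minus scrambled shRNA (vertical axis) for each of 19064 probe sets, coloured by which comparison passed adjusted p under 0.05. The calls split into 530 with the same sign in both, 529 with opposite signs and 1271 not called between the controls. LTB and CXCL10 stand at the lower right, MT1X at the upper left, and EVI2A near the horizontal zero line.

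Because the controls differed, the effect of each vector against its own control was also compared, as (overexpression minus empty vector) minus (knockdown minus scrambled shRNA). This difference passed the threshold at 2976 probe sets (15.6%), 1151 of them positive (6.04%) and 1825 negative (9.57%). PMCH had 1.82 ± 0.10 (adjusted p = 5.62e-07), EVI2A 1.65 ± 0.13 (adjusted p = 1.3e-05) and EGFL6 1.88 ± 0.13 (adjusted p = 4.04e-06). LY96 had 0.54 ± 0.23 (adjusted p = 0.142). MMP1 had -0.79 ± 0.21 (adjusted p = 0.0236) and MAP1B -1.21 ± 0.14 (adjusted p = 0.000139). Among genes called in the same direction in both the direct and the control comparison, TUBB2B, a beta-tubulin, had a direct difference of -0.92 and a control difference of -0.99. TFPI2, a protease inhibitor, had -0.91 and -0.42, INHBE, an activin subunit, -0.88 and -0.70, and ATP8B1, a phospholipid flippase, -0.83 and -0.73. None of these 4 genes passed the threshold in the difference of the vector effects (adjusted p from 0.101 for TFPI2 to 0.819 for ATP8B1). The choice of genes with equal signs favours this, because that difference equals the direct difference minus the control difference. Other genes of equal sign in both comparisons did pass. MMP1 and PMCH above were among them, with ATF3 at -0.74 (adjusted p = 0.00474), PRSS2 at 1.16 (adjusted p = 9.49e-05) and CCL5 at 0.82 (adjusted p = 0.00662). LY96 and CALB1, also of equal sign, did not pass.

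Among called targets of NF-kappaB, most were higher in overexpression. NF-kappaB is a family of transcription factors that cytokines and pattern receptors release into the nucleus, where it induces chemokines, cytokines and its own inhibitors. Of 29 measured targets, 10 rose and 2 fell, against 5.57% and 7.6% of all genes, and the list's median was 0.119, against -0.0188 over all genes. LTB, the membrane partner of lymphotoxin, had 9.27, 9.15 and 9.17 in overexpression, 7.76, 7.84 and 7.89 in knockdown, 7.86, 7.83 and 7.81 with empty vector, and 10.92, 11.13 and 10.93 with scrambled shRNA. Knockdown and empty vector overlapped, overexpression stood above both, and scrambled shRNA was higher still. The rise over knockdown was 1.36 ± 0.07 (2.57-fold, adjusted p = 1.22e-06).
CXCL10, a chemokine that attracts T cells, had 7.11, 7.01 and 7.14 in overexpression, 5.63, 5.63 and 5.76 in knockdown, 6.29, 6.36 and 6.24 with empty vector, and 8.66, 8.59 and 8.44 with scrambled shRNA. Its rise was 1.41 ± 0.07 (adjusted p = 1.22e-06), with no overlap between any of the 4 groups. IER3, an early response gene that modulates cell survival, had 11.49, 11.37 and 11.52 in overexpression, 10.06, 10.11 and 10.10 in knockdown, 10.06, 9.95 and 9.97 with empty vector, and 12.19, 12.28 and 11.85 with scrambled shRNA. It followed the order of LTB, with a rise of 1.37 ± 0.10 (adjusted p = 1.43e-05).

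The chemokines CCL5 and CCL20 were not high in the scrambled arrays. CCL5, a chemokine for T cells and monocytes, had 6.70, 6.19 and 6.52 in overexpression, 5.22, 4.99 and 5.32 in knockdown, 5.80, 5.65 and 5.59 with empty vector, and 5.24, 5.21 and 5.18 with scrambled shRNA. CCL20, which binds the receptor CCR6, had 5.26, 5.28 and 5.02 in overexpression, 4.07, 4.05 and 4.0 in knockdown, 4.04, 3.75 and 4.10 with empty vector, and 4.10, 4.0 and 4.10 with scrambled shRNA. Overexpression was highest for both genes, and for CCL5 the empty vector arrays also stood above the lentiviral ones. The rise over knockdown was 1.30 ± 0.12 for CCL5 and 1.15 ± 0.10 for CCL20. The mean level of CCL20 was low, at percentile 13.1 of all genes. In this list IRF1, an interferon regulatory factor, fell by 0.61 and CXCL8, the neutrophil chemokine, fell by 0.49; both are named after their values were seen. CXCL8 had 9.18, 9.03 and 9.01 in overexpression against 9.64, 9.36 and 9.70 in knockdown, and 11.65 to 11.87 with scrambled shRNA. Between the controls 19 of the 29 targets were lower and 3 higher with empty vector, against 15.1% and 14.3% of all genes, with a list median of -0.784.

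Immediate early genes, which growth factor and ERK signalling switch on within minutes, and the feedback genes of that pathway were also mostly higher where called. Of 39 measured, 12 rose and 1 fell, with a median of 0.163. EGR3, a zinc finger transcription factor, had 7.49, 7.05 and 7.30 in overexpression, 6.13, 6.06 and 6.18 in knockdown, 6.17, 6.12 and 6.00 with empty vector, and 8.17, 8.31 and 8.02 with scrambled shRNA. EGR1, its relative, had 11.56, 11.34 and 11.42 in overexpression, 10.54, 10.57 and 10.51 in knockdown, 10.44, 10.31 and 10.34 with empty vector, and 11.83, 11.91 and 11.82 with scrambled shRNA. Both had the order of LTB, with rises of 1.15 ± 0.11 and 0.90 ± 0.07. NAB2, a corepressor that EGR proteins induce and that restrains them, rose by 0.72, with 8.20, 8.16 and 8.13 in overexpression against 7.41, 7.44 and 7.48 in knockdown. The 1 gene of the list that fell was ATF3, a stress-induced factor that ATF4 also induces. Between the controls, 24 of the 39 genes were lower with empty vector and 1 was higher, against 15.1% and 14.3% of all genes.

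**Figure D3:**
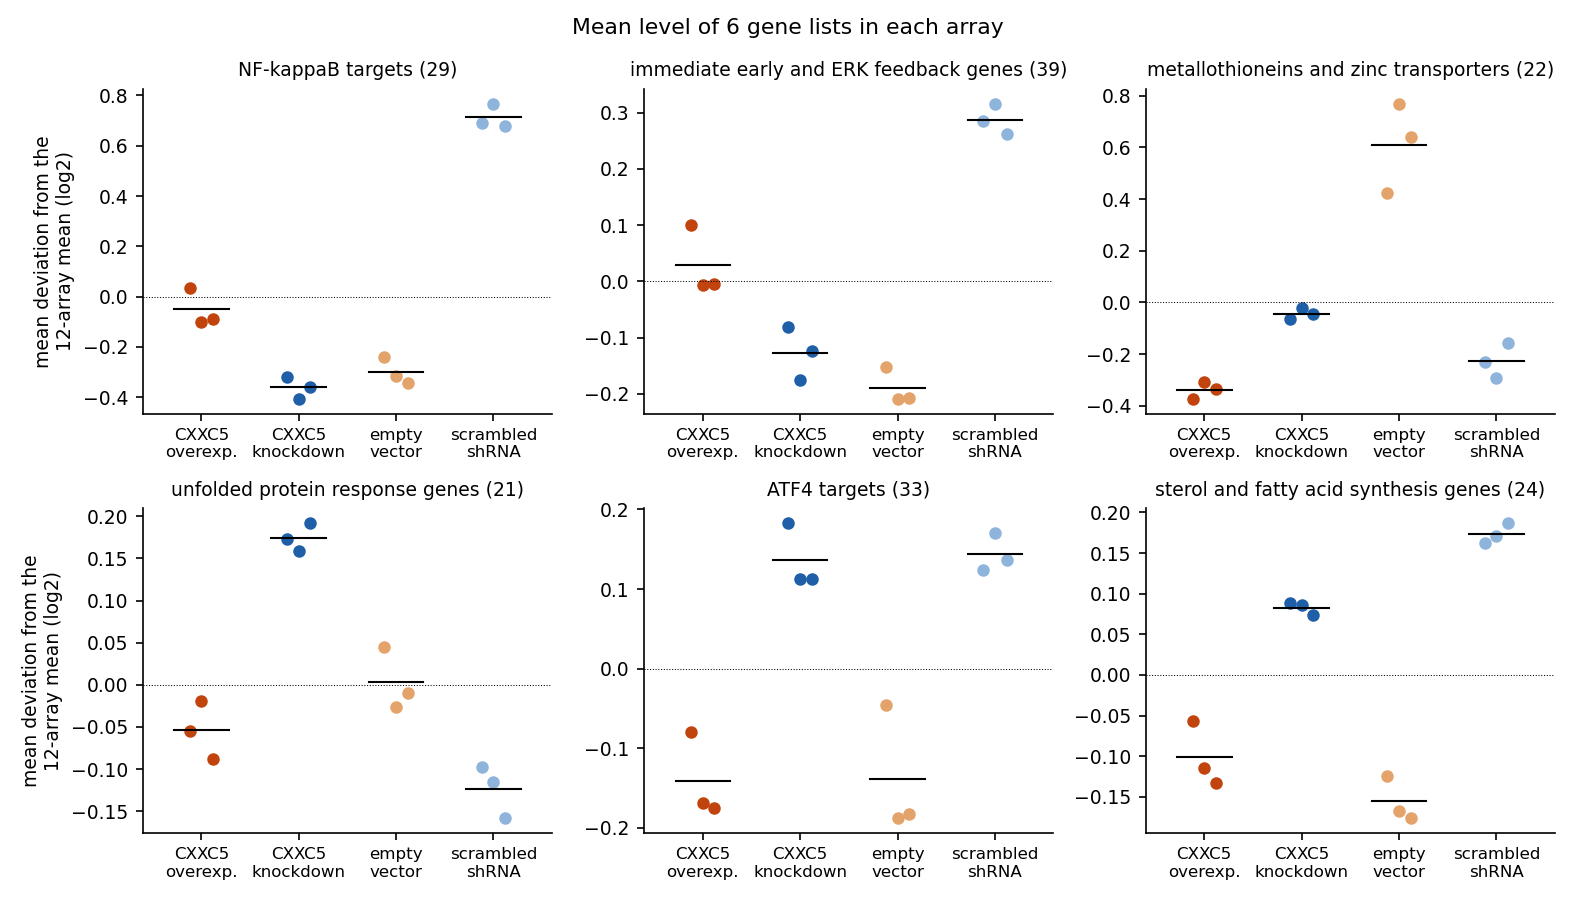
Mean over the genes of 6 lists of each gene's log2 deviation from its 12-array mean (vertical axis, a separate scale per list), for each array; points are arrays, lines are group means (n = 3 each), and the number of measured genes is in brackets. Overexpression lies above knockdown in the first 2 panels and below it in the other 4, without overlap; the control groups lie apart from each other in each panel, with scrambled shRNA highest for NF-kappaB targets and empty vector highest for metallothioneins and zinc transporters.

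Called metallothioneins and the zinc exporter SLC30A1 were lower in overexpression. Metallothioneins hold zinc and copper through their many cysteines, and with this exporter they are induced by zinc through MTF1. Of 22 measured genes of this list, 5 fell and 1 rose, with a median of -0.186; without knockdown replicate 2, 3 fell. MT1X had 6.53, 6.45 and 6.57 in overexpression, 8.05, 8.13 and 7.94 in knockdown, 10.12, 10.95 and 10.57 with empty vector, and 7.34, 7.14 and 7.23 with scrambled shRNA. Overexpression was lowest and empty vector highest, and the fall below knockdown was -1.53 ± 0.16 (2.88-fold, adjusted p = 0.000163). Metallothionein sequences are nearly alike, so their probe sets may read one another.
SLC30A1 had 8.20, 8.18 and 7.97 in overexpression, 9.63, 9.57 and 9.57 in knockdown, 9.68, 9.87 and 9.70 with empty vector, and 8.55, 8.29 and 8.39 with scrambled shRNA. Knockdown and empty vector lay together at the top, and overexpression fell by 1.47 ± 0.09 below knockdown (adjusted p = 2.93e-06). MT2A fell by 0.80 (adjusted p = 0.0203) and the metallothionein gene MT1HL1 fell by 0.65 (adjusted p = 0.0173), and leaving out knockdown replicate 2 ended both calls. The call of MT2A was also lost without overexpression replicate 1 or 2, and that of MT1HL1 without overexpression replicate 3. With each end set against its own control, the difference was -4.83 ± 0.22 for MT1X (adjusted p = 1.94e-07) and -2.80 ± 0.12 for SLC30A1 (adjusted p = 1.44e-07).

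Targets of BMP and TGF-beta signalling, the SMAD-dependent pathways, were mostly lower among those called: of 25 measured, 8 fell and 2 rose, with a median of -0.143. ID3, an inhibitor of basic helix-loop-helix factors, had 5.46, 5.11 and 5.0 in overexpression, 6.63, 6.50 and 6.42 in knockdown, 6.44, 6.36 and 6.31 with empty vector, and 5.80, 5.47 and 5.62 with scrambled shRNA. It fell by 1.33 ± 0.12 (adjusted p = 7.35e-05), with the empty vector arrays next to knockdown and the lowest scrambled array just above the highest overexpression array. SMAD7, the inhibitory SMAD, had 8.55, 8.41 and 8.47 in overexpression, 9.51, 9.41 and 9.44 in knockdown, 9.26, 9.16 and 9.04 with empty vector, and 8.69, 8.66 and 8.79 with scrambled shRNA. HES1, a repressor induced by Notch as well as by BMP signalling, had 8.02, 7.81 and 7.71 in overexpression, 9.03, 8.89 and 8.91 in knockdown, 8.56, 8.49 and 8.45 with empty vector, and 8.48, 8.33 and 8.72 with scrambled shRNA. The controls of HES1 overlapped between the ends. HES1 fell by 1.10 ± 0.10 and SMAD7 fell by 0.98 ± 0.07 below knockdown. SKIL, a SMAD corepressor, fell by 0.86. TMEM100, a transmembrane protein of endothelium induced by BMP signalling, was outside the list and fell by 1.14, with 7.82, 7.68 and 7.55 in overexpression against 8.96, 8.65 and 8.88 in knockdown. ID1, named after its value was seen, rose by 0.77, opposite to ID3.

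Called genes of the integrated stress response were lower in overexpression. ATF4 is translated when eIF2-alpha is phosphorylated, and it induces amino acid synthesis, transport and tRNA charging. Of 33 measured ATF4 targets, 16 fell and 0 rose, with a median of -0.251. The number that fell was 10 without knockdown replicate 3, without overexpression replicate 2 or without overexpression replicate 3. ATF3 had 7.78, 7.5 and 7.53 in overexpression, 8.79, 8.61 and 8.69 in knockdown, 8.15, 7.79 and 7.92 with empty vector, and 8.22, 8.38 and 8.29 with scrambled shRNA. It fell by 1.09 ± 0.10 (2.13-fold, adjusted p = 0.000104), and 1 of its 2 promoter windows holds the ATF4 letters. CTH, cystathionine gamma-lyase of cysteine synthesis, had 9.11, 8.93 and 8.99 in overexpression against 9.89, 9.75 and 9.85 in knockdown; it fell by 0.82 ± 0.09. TRIB3, a pseudokinase induced by ATF4, had 10.25, 10.12 and 10.17 in overexpression, 10.81, 10.82 and 10.77 in knockdown, 10.30, 10.28 and 10.26 with empty vector, and 10.67, 10.75 and 10.89 with scrambled shRNA. For TRIB3 the lentiviral groups overlapped and both stood above both nucleofected groups, and its difference of vector effects was -0.13 ± 0.09 (adjusted p = 0.396). Of 17 aminoacyl-tRNA synthetases, AARS1 fell by 0.46 and FARSA fell by 0.28, and 0 rose (11.8% called, against 13.2% of all genes). The FARSA call was lost without knockdown replicate 2 or 3 or overexpression replicate 3, and its other probe set had -0.10 (adjusted p = 0.338). As a list, ATF4 targets were also lower with empty vector than with scrambled shRNA. There 13 fell and 3 rose, against 15.1% and 14.3% of all genes. With each end against its own control, 5 of the 33 were negative and 4 positive, against 10.7% and 6.85% of all genes.

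The unfolded protein response, which raises chaperones of the endoplasmic reticulum, gave 10 falls and 0 rises among 21 measured genes, with a median of -0.287. Leaving out any of the 6 arrays, or the third scrambled array, left 9 to 11 falls. HSPA5, the chaperone BiP, had 12.20, 12.18 and 12.15 in overexpression, 12.82, 12.81 and 12.78 in knockdown, 12.48, 12.40 and 12.38 with empty vector, and 11.98, 12.01 and 11.88 with scrambled shRNA. None of these groups overlapped for HSPA5, knockdown was highest, and overexpression fell by 0.63 ± 0.06 (adjusted p = 0.000104). MANF, a secreted survival factor of the same response, fell by 0.45 and PDIA4, a disulfide isomerase, fell by 0.44 (adjusted p = 0.0389, lost without any 1 of 5 arrays). SEL1L, of the degradation machinery, fell by 0.61, but its 3 dimmer probe sets had differences of 0.03 to 0.17. Between the controls this list had 7 genes higher and 1 lower with empty vector, against 14.3% and 15.1% of all genes. That was opposite in direction to the ATF4 targets there. With each end against its own control, 11 of the 21 were negative and 0 positive, against 10.7% and 6.85% of all genes.

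Cholesterol and fatty acid synthesis is driven by SREBP factors when sterols run low. Of 24 measured genes, 10 fell and 2 rose, with a median of -0.201, but the number that fell was 3 to 5 without knockdown replicate 1, 2 or 3 or overexpression replicate 2 or 3. HMGCS1, which makes HMG-CoA, had 10.48, 10.41 and 10.36 in overexpression, 11.15, 11.12 and 11.15 in knockdown, 10.73, 10.47 and 10.54 with empty vector, and 11.32, 11.38 and 11.45 with scrambled shRNA. The lentiviral groups were high and the nucleofected groups low. HMGCS1 fell by 0.73 ± 0.07 between overexpression and knockdown and fell by 0.80 between empty vector and scrambled shRNA. HSD17B7, a later enzyme of the pathway, fell by 0.44 and fell by 0.54 in those comparisons. FASN, fatty acid synthase, had -0.41 in the direct comparison (adjusted p = 0.0332), a call lost without any 1 of 5 arrays. Between the controls, 14 of the 24 genes were lower and 1 higher with empty vector, against 15.1% and 14.3% of all genes. With each end against its own control, 2 were negative and 6 positive, against 10.7% and 6.85% of all genes.
Hypoxia and glycolysis genes, induced by HIF1 when oxygen is low, had 8 falls and 1 rise among 35, with a median of -0.0998; 4 fell without overexpression replicate 2 or 3. VEGFA, the vascular growth factor, had 10.19, 9.96 and 10.07 in overexpression, 10.95, 10.70 and 10.75 in knockdown, 10.27, 9.86 and 9.93 with empty vector, and 11.01, 11.13 and 11.23 with scrambled shRNA. The lentiviral groups again stood above the nucleofected ones. VEGFA fell by 0.72 between overexpression and knockdown and fell by 1.11 between empty vector and scrambled shRNA. Between the controls, 16 of the 35 genes were lower and 2 higher with empty vector, against 15.1% and 14.3% of all genes. With each end against its own control, 3 were negative and 10 positive, against 10.7% and 6.85% of all genes. P4HA1, a collagen prolyl hydroxylase, fell by 0.60, and ALDOC, an aldolase, fell by 0.61, and leaving out overexpression replicate 2 or 3 ended both calls; that of ALDOC was also lost without any one knockdown array.

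**Figure D4:**
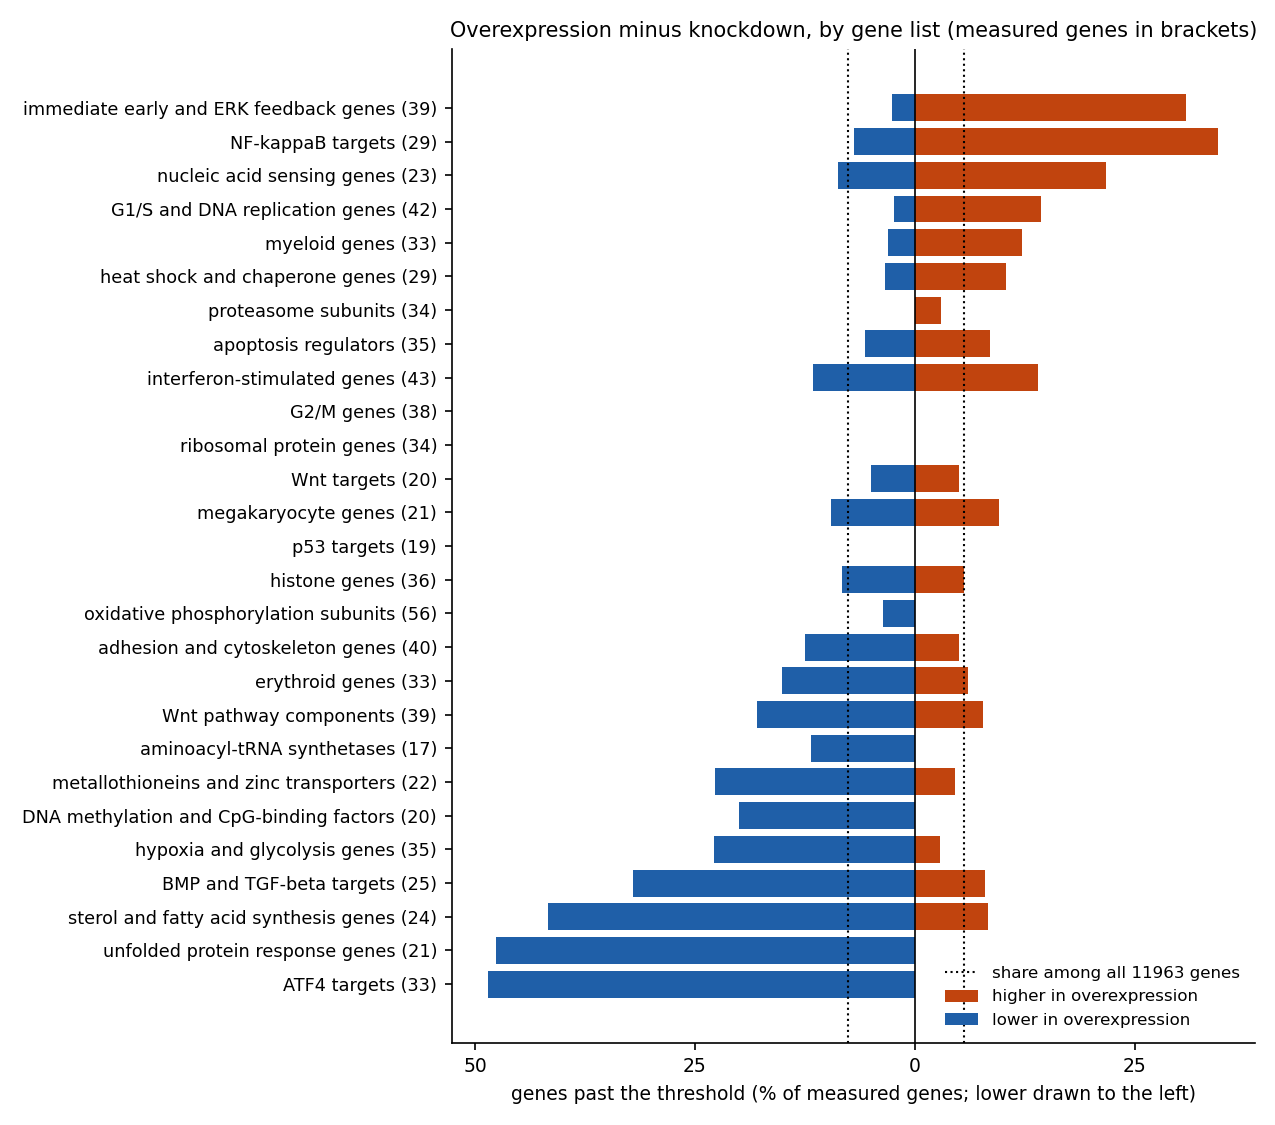
Share of the measured genes of each list (bracketed number) that passed adjusted p under 0.05 in CXXC5 overexpression minus CXXC5 knockdown, as percent, drawn to the right where higher and to the left where lower in overexpression; dotted lines mark the shares among all 11963 genes, 5.57% and 7.6%. NF-kappaB targets and immediate early genes extend farthest to the right, and ATF4 targets, unfolded protein response and sterol genes farthest to the left.

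Canonical Wnt signalling is the pathway that the added Wnt3a activates, through Frizzled receptors and beta-catenin acting with TCF and LEF factors. Among 20 measured Wnt target genes, 1 rose and 1 fell, against 5.57% and 7.6% of all genes. LEF1, a DNA-binding partner of beta-catenin and itself a target, had 9.74, 9.77 and 9.70 in overexpression, 9.36, 9.37 and 9.37 in knockdown, 9.48, 9.52 and 9.37 with empty vector, and 9.66, 9.61 and 9.56 with scrambled shRNA. Overexpression was highest and its difference was 0.37 ± 0.06 (adjusted p = 0.00276); of the other LEF1 probe sets, 1 had 0.56 and 1 had -0.13. BAMBI, a pseudoreceptor that restrains TGF-beta signalling, had -0.28 (adjusted p = 0.0354), a call lost without any 1 of the 6 arrays.
Of 39 Wnt pathway components, 3 rose and 7 fell, with a median of -0.034; 1 to 4 fell when any 1 of the 6 arrays was left out. AXIN1, a scaffold of the complex that marks beta-catenin for destruction, had 8.30, 8.34 and 8.30 in overexpression, 7.90, 7.90 and 7.95 in knockdown, 8.03, 8.03 and 8.00 with empty vector, and 8.29, 8.37 and 8.53 with scrambled shRNA. AXIN1 rose by 0.40 ± 0.07 (adjusted p = 0.00322), with the empty vector near knockdown and the scrambled arrays overlapping overexpression. FZD7, a Frizzled receptor, had a difference of -0.46 (adjusted p = 0.0125), lost without overexpression replicate 2, and its dimmer probe set had 0.03. CTBP2, a corepressor, had 0.48 at its brightest probe set and -0.67 at another, both past the threshold with all arrays. The call at the brightest was lost without knockdown replicate 1 or overexpression replicate 2 or 3 and in a fit of the 6 arrays alone, and the mean over the probe sets ended the call of CTBP2, with a difference of 0.055.

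Of 20 measured factors of DNA methylation and CpG binding, 4 fell and 0 rose, with a median of -0.0238. DNMT3B, a de novo DNA methyltransferase, had 10.02, 9.97 and 9.86 in overexpression, 10.41, 10.36 and 10.28 in knockdown, 10.32, 10.29 and 10.28 with empty vector, and 9.86, 9.82 and 9.86 with scrambled shRNA. It fell by 0.40 ± 0.06 (adjusted p = 0.00232), with overexpression overlapping the scrambled arrays and knockdown the empty vector arrays. CXXC4, the closest relative of CXXC5, had -0.37 (adjusted p = 0.0254), and TET1, a CXXC-domain enzyme that oxidises methylcytosine, had -0.48 (adjusted p = 0.0142). The CXXC4 call was lost without knockdown replicate 2 or overexpression replicate 1 or 3, and the TET1 call without overexpression replicate 3. KMT2A, a histone methyltransferase with a CXXC domain, had -0.50 (adjusted p = 0.0451), lost without any 1 of 9 arrays, and its other probe sets had -0.32 to 0.12. Without overexpression replicate 3, 1 gene of the list fell.
Promoters of genes that were higher held a median of 17 CpG in the 250 bases before the start, over 541 of 666 genes with a promoter entry (81.2%). Promoters of genes that were lower held 21, over 749 of 909 (82.4%). Among genes above the median mean level, the medians were 20 for higher and 21.6 for lower genes. The share of genes with an entry required here for such a count was 80%. Of the 11 genes lower by at least 2-fold, 9 had one (81.8%), with a median of 19 CpG. Other sets did not reach that share: 79.6% of uncalled genes, 79.9% of all genes and 55.6% of genes higher by at least 2-fold. Among the dimmer genes, 77.2% of higher and 76.4% of lower ones had an entry. The check against uncalled genes is therefore void, and the medians above stand without a baseline.

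Among genes of the blood lineages, erythroid and megakaryocyte genes were called in both directions. Of 33 erythroid genes, 2 rose and 5 fell (21.2% called, against 13.2% of all genes), with a median of -0.0621. Only 3 fell without knockdown replicate 2 or overexpression replicate 3. HBZ, the embryonic zeta-globin, had 11.84, 11.86 and 11.92 in overexpression, 12.60, 12.60 and 12.60 in knockdown, 12.28, 12.17 and 12.22 with empty vector, and 12.98, 13.02 and 13.14 with scrambled shRNA. The 4 groups were separate, and HBZ fell by 0.72 ± 0.06 (adjusted p = 5.9e-05), and the empty vector group fell by 0.82 below the scrambled group. TFRC, the transferrin receptor that takes up iron, had 13.63, 13.60 and 13.62 in overexpression, 13.12, 13.16 and 13.17 in knockdown, 13.16, 13.25 and 13.14 with empty vector, and 13.61, 13.58 and 13.55 with scrambled shRNA. It rose by 0.47 ± 0.06 (adjusted p = 0.000437), with empty vector near knockdown and scrambled shRNA near overexpression. FECH, which inserts iron into haem, fell by 0.37, and XK, a red cell membrane protein, fell by 0.41.
Of 33 myeloid genes, 4 rose and 1 fell (15.2% called, against 13.2% of all genes), with a median of 0.101. Beside LY96, CSF2RB, the shared receptor chain for GM-CSF and related cytokines, had 6.98, 6.88 and 6.52 in overexpression against 6.28, 5.72 and 5.84 in knockdown, a rise of 0.85 ± 0.17. NCF4, a subunit of the phagocyte oxidase, rose by 0.68, and CEBPA, a granulocyte transcription factor, fell by 0.47. Of 21 megakaryocyte genes, 2 rose and 2 fell (19% called). CD9, a tetraspanin, had -0.52 (adjusted p = 0.0322, lost without any 1 of 5 arrays) and F2R, the thrombin receptor, fell by 0.39.

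Among markers of other cell types, lymphoid markers had mean levels of 5.63 to 5.76 in overexpression and 5.57 to 5.68 in knockdown. They had 5.51 to 5.56 with empty vector and 5.69 to 5.75 with scrambled shRNA. Of 27 measured, 6 rose and 1 fell, against 5.57% and 7.6% of all genes. JCHAIN, of antibody-secreting cells, had 3.54, 3.34 and 3.53 in overexpression against 2.86, 2.89 and 2.95 in knockdown. Its mean level was very low, at percentile 2.96 of all genes. NKG7, of cytotoxic cells, rose by 0.57, and CD8A, of T cells, fell by 0.51. Of 20 fibroblast markers, 1 rose and 1 fell (10% called, against 13.2% of all genes). S100A4, a calcium-binding protein that many cells make, rose by 0.58, and FN1, fibronectin, fell by 0.74. FN1 had 10.32, 10.21 and 10.28 in overexpression, 11.06, 10.97 and 10.99 in knockdown, 10.74, 10.76 and 10.77 with empty vector, and 11.67, 11.68 and 11.62 with scrambled shRNA. Of 19 epithelial markers, limma called 0 after adjustment and 7 had an unadjusted p under 0.05, against 28.7% of all genes. The part of these markers in the other results was not tested.

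Interferon-stimulated genes split: of 43 measured, 6 rose and 5 fell, with a median of 0.0529; 3 fell without knockdown replicate 1, knockdown replicate 2 or overexpression replicate 3. GBP2, an interferon-induced GTPase, had 7.14, 6.63 and 7.05 in overexpression, 6.09, 5.82 and 6.07 in knockdown, 6.37, 6.02 and 6.02 with empty vector, and 5.97, 6.18 and 6.14 with scrambled shRNA. Overexpression alone was high, by 0.95 ± 0.14 over knockdown. RSAD2, the antiviral enzyme viperin, had 9.10, 8.80 and 8.82 in overexpression, 8.29, 8.13 and 8.25 in knockdown, 9.14, 9.16 and 8.99 with empty vector, and 7.61, 7.55 and 7.38 with scrambled shRNA. RSAD2 was thus higher in the nucleofected groups, by 0.68 over knockdown and by 1.58 between the controls. PSMB9, an immunoproteasome subunit, fell by 0.62. Among 23 genes of nucleic acid sensing, 5 rose and 2 fell, with a median of -0.0138; 2 or 3 rose when any 1 of the 6 arrays was left out. AIM2, a sensor of cytoplasmic DNA, had 7.45, 7.40 and 7.36 in overexpression, 6.63, 6.24 and 6.43 in knockdown, 6.51, 6.37 and 6.23 with empty vector, and 7.08, 7.00 and 6.83 with scrambled shRNA. AIM2 rose by 0.97 ± 0.11 (adjusted p = 0.000238). SAMHD1, a dNTP hydrolase that restricts viruses, had 0.36 (adjusted p = 0.0428, lost without any 1 of 8 arrays).

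Of 42 genes of the G1/S step and DNA replication, 6 rose and 1 fell (16.7% called, against 13.2% of all genes), with a median of 0.034. Only 2 or 3 rose without knockdown replicate 2, knockdown replicate 3 or overexpression replicate 2. RRM2, a subunit of ribonucleotide reductase, had 11.86, 11.89 and 11.81 in overexpression, 11.51, 11.37 and 11.39 in knockdown, 11.71, 11.80 and 11.59 with empty vector, and 11.88, 11.89 and 11.95 with scrambled shRNA. Knockdown was the low group, and the difference was 0.43 ± 0.07 (adjusted p = 0.00275). Among 38 G2/M genes limma called 0, with 5 at an unadjusted p under 0.05, among 19 p53 targets 0 with 6, and among 34 ribosomal protein genes 0 with 1. Of 56 oxidative phosphorylation subunits 2 fell (3.57% called), and of 34 proteasome subunits 1 rose (2.94% called), against 13.2% of all genes. Among 35 apoptosis regulators, 3 rose and 2 fell (14.3% called, against 13.2% of all genes). BCL2L1, which protects mitochondria, rose by 0.34 and BIK, its opponent, by 0.69, while BAD, a further opponent, fell by 0.40. The other BCL2L1 probe sets had 0.27 (adjusted p = 0.199) and 0.12 (adjusted p = 0.333). The other probe set of BAD had 0.06 (adjusted p = 0.735), and the mean over both ended the call. Another opponent, BCL2L11, had -0.42 (adjusted p = 0.0271), lost without knockdown replicate 1 or 3 or overexpression replicate 2 or 3.
Of 29 heat shock and chaperone genes, 3 rose and 1 fell (13.8% called, against 13.2% of all genes). HSPA6, an inducible HSP70, rose by 0.51 at its brightest probe set, but its other probe set had -0.06 (adjusted p = 0.733). SERPINH1, a collagen chaperone, fell by 0.58. Of 36 histone genes, 2 rose and 3 fell (13.9% called), and their near-identical copies may share probes. Of 40 adhesion and cytoskeleton genes, 2 rose and 5 fell (17.5% called). CORO1A, an actin regulator of blood cells, had 8.21, 8.03 and 8.11 in overexpression against 7.33, 7.21 and 7.27 in knockdown, a rise of 0.84 ± 0.07. SSH1, a cofilin phosphatase, fell by 0.70.

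The calls were not spread evenly over expression levels. With the probe sets in 4 bins of equal size by mean level, 5.75% were called in the dimmest bin (means 2.32 to 5.04), 192 higher and 82 lower, and in the brightest (8.82 to 14.4) 14.9%, 212 higher and 496 lower. The second bin had 304 higher and 212 lower, and the third 349 higher and 483 lower. Of 2015 genes with at least 1 called probe set, 257 had more than 1; these calls ran in the same direction for 235 genes and in both directions for 22.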

How the data were processed

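Gene expression was measured with 12 Affymetrix 3′ expression arrays, 1 per sample, from 500 ng total RNA per the labels' protocols. The deposited log2 values (2.07 to 14.4) were made by the authors with Affymetrix Expression Console, per the submitters' processing notes; neither a version nor a summarisation method is given there. The log2 scale was inferred from the range. Array medians of 6.65 to 6.71 show a common scale; detection calls, scan batches and a genome build are not given, so precision rests on the number of arrays.

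Of 22277 probe sets, 62 controls were left out. A platform annotation paired 19064 with 1 symbol, 1043 with several and 2108 with none; 19052 symbols were looked up by gene identifier in RefSeq (GRCh38.p14), used for names and promoters, and 12 kept the symbol given. Genes were taken at the probe set with the highest mean; 4310 of 11963 had more than 1.

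limma 3.58.1 (R 4.3.3) fitted 1 coefficient per group over 12 arrays (lmFit, eBayes, 8 residual degrees of freedom, two-sided), with Benjamini-Hochberg adjustment over 22215 probe sets and a threshold of 0.05. The steps were tested on simulated data. Whether replicates were separate cultures is not labelled; the p-values then reflect only how far these samples spread, which may be technical variation.

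Genes were named by rule: the 15 largest differences each way whose arrays did not overlap, the 6 largest each way also called with the same sign within deliveries or between the controls, the 4 largest each way of opposite sign between the controls, and up to 4 called genes, or else the 2 with the smallest p, of each of 31 lists. The comparison and the lists were chosen with earlier results of these data known. Promoter entries cover the 250 bases before each start. Alternatives covered scaling, filtering, probe set choice, prior, array weights, the replicate number as a block, stricter thresholds, and leaving out each array.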

Additional observations from a re-analysis of the deposited data

Results flagged for a closer look

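The difference between overexpression and knockdown was not the same as the difference between the empty vector and scrambled shRNA groups at 2976 of 19064 probe sets, by the test of the difference between those differences (limma, adjusted p under 0.05). At the brightest probe set per gene, 404 of the 1575 genes called in the direct comparison were also called between the controls with the opposite sign. Another 320 were called there with the same sign. The 8 genes below had the largest direct differences among the 404, 4 each way. The tested value equals the direct difference minus the control difference, so opposite signs make it large by construction. With each end set against the control of its own delivery, LTB had 4.53 ± 0.10 (SE) on the log2 scale, CXCL10 3.68 ± 0.11, IER3 3.49 ± 0.14 and EGR3 3.22 ± 0.15. In these 4 genes the scrambled shRNA arrays were the highest and overexpression came next. MT1X had -4.83 ± 0.22, SLC30A1 -2.80 ± 0.12, TMEM100 -2.08 ± 0.17 and ID3 -2.07 ± 0.17. In MT1X and SLC30A1 overexpression was the lowest group and the empty vector group had the highest mean. TMEM100 had 7.82, 7.68 and 7.55 in overexpression, 8.96, 8.65 and 8.88 in knockdown, 9.0, 8.97 and 8.84 with empty vector, and 8.16, 7.75 and 8.11 with scrambled shRNA.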

How the results depend on the processing

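The direct comparison called 2330 probe sets (1057 higher, 1273 lower). Array weights gave 4155 (1976 and 2179), an adjusted p under 0.01 gave 782 (359 and 423), and adding a 1.5-fold minimum gave 331 (194 and 137). Leaving out 1 array gave 1230 to 2803 calls (550 to 1260 higher, 642 to 1543 lower). The difference of the vector effects called 1541 at an adjusted p under 0.01 (612 and 929) and 1324 with the 1.5-fold minimum (550 and 774), against 2976. Empty vector minus scrambled shRNA called 2674 at an adjusted p under 0.01 (1441 and 1233), 924 with the 1.5-fold minimum (543 and 381), 1833 higher with fewer probe sets tested, 1 per gene, and 3525 to 5577 with 1 array left out (1823 to 2928 higher, 1702 to 2649 lower). Other settings moved no count by over 1.5 times. The replicate numbers shared by the groups did not all pair the samples (correlations of deviations 0.379, 0.000852 and 0.205), and the replicate block gave 2698 calls. The mean over probe sets turned RDX from -0.37 to 0.019 (adjusted p = 0.936), with dimmer probe sets of opposite sign. Of 114 called genes named by the rule, 81 passed the threshold with each array left out in turn and 33 lost it without at least 1. The cause was not tested for the array weights. List counts with arrays left out were chosen after seeing the data. The difference of vector effects could not be computed from only the 6 arrays compared, because it needs the control arrays.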

Other observations

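At probe sets that are not the brightest of their gene, IFIT5, an interferon-induced protein, had a log2 difference of 1.84 (adjusted p = 0.000384), DHRS2, a mitochondrial reductase, had 1.51 (adjusted p = 0.000115), and the second MT1X probe set had -1.89 (adjusted p = 0.000265). Between empty vector and scrambled shRNA, these probe sets had 0.08, 0.39 and 3.80. They were chosen after their values were seen.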
